A study of Mus musculus with 6 samples.

Results

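The genes described here are 8 genes of the neutrophil promyelocyte, chosen by name: Mpo, the serine proteases Elane, Prtn3 and Ctsg, their activating peptidase Ctsc, the membrane protein Ms4a3, the ficolin Fcnb and the protease inhibitor Serpinb1a. They are 8 of 43432 genes in the deposited table, and all 8 were among the 9923 that were abundant enough to be tested. Bulk RNA-seq was done on CD11b+ cells of the spleen, taken 8 days after cells were transferred into Rag1-KO mice on the C57BL/6J background. These hosts make neither mature T cells nor mature B cells, and all of them received 2D2 CD4+ T cells, whose receptor recognises the myelin protein MOG. They also received B cells grown in the iGB culture and loaded with MOG protein. In the WT iGB6 group (3 mice) the B cells were wild type and were transduced with a retroviral vector that carries Il6 and eGFP. In the IgHMOG iGBGFP group (3 mice) the B cells bore the IgHMOG heavy chain and the empty pMSCV vector. B cell genotype and vector changed together, so their effects cannot be told apart. Replicate 1 was female and replicates 2 and 3 were male in both groups.

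Neutrophils store their antimicrobial proteins in granules that are filled in sequence as the cell matures. Primary, or azurophil, granules are filled at the promyelocyte stage, and the genes for myeloperoxidase and the neutrophil serine proteases are transcribed in that window and largely shut down before the secondary granules form. In the adult mouse this takes place mainly in bone marrow, and the spleen can also host it. The proteases are made as inactive zymogens that cathepsin C trims at the amino terminus, and cytosolic serpins hold any protease that leaks from the granule.

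Depth ran from 5196339 to 7564254 reads per library, with 14816 to 17013 genes detected. A gene with no reads could have had up to 3, which is 2.37 to 3.56 normalized counts (reads divided by the authors' size factor of the library). The lowest value of any of the 8 genes in any library was 24 reads. The gated marker Itgam, which encodes CD11b, stood at 6451 to 12352 normalized counts, and the neutrophil gene S100a8 at 83889 to 229532. The T cell gene Cd3e had 0 to 4 reads, while Cd3d, also a T cell gene, had 47 to 129.

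The comparison asks how these genes differed in splenic CD11b+ cells between recipients of wild-type, Il6-transduced B cells and recipients of IgHMOG B cells that carried the empty vector. Of the 8 genes, 7 were higher in WT iGB6, none was lower, and Ctsc was not called. The fold of the group means ran from 2.02 for Serpinb1a to 11.6 for Mpo among the 7. A gene was called at a Benjamini-Hochberg adjusted p under 0.05 in a limma fit with group and sex, on log2(normalized count + 1), over all 9923 genes, of which 2.75% were called higher and 3.37% lower (6.12% in either direction). In 6 of the 8 genes every WT iGB6 library was above every IgHMOG iGBGFP library, against 12.2% of tested genes. The median log2 fold change of the 8 genes was 2.27, beside 0.02 over all tested genes. In bulk RNA, more cells of a type and more RNA per cell cannot be told apart.

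The calls leaned on the sex term and on single libraries, while the direction did not. Without the sex term 0 of the 8 genes were called (smallest adjusted p among them = 0.0887), beside 6 genes higher and 4 lower over all 9923. Without IgHMOG iGBGFP replicate 2 also 0 were called (smallest adjusted p among them = 0.0516), beside 3 higher and 1 lower over all. In each of these fits 7 of the 8 genes had an unadjusted limma p under 0.05. Over all 9923 genes, 2012 did so without the sex term and 1655 without that replicate. Ms4a3 and Fcnb were the 2 genes called without IgHMOG iGBGFP replicate 3. Mpo, Ctsg, Ms4a3 and Fcnb were the 4 called without replicate 1 of either group, and also in the males alone. All 8 estimates stayed above 0 in each of the alternative fits and in the authors' deposited table.

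The stretches of promoter below are shown because most of these genes rose together and because each stretch holds the letters GGAAGT, a core that ETS factors such as PU.1, a regulator of myeloid genes, can bind. They come from RefSeq promoter windows on GRCm38.p6, which hold 7 of the 8 genes, and are printed on the gene's strand from 5′ to 3′. Capitals mark GGAAGT, or ACTTCC where it lies on the opposite strand.
Mpo: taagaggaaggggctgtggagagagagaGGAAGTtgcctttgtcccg
Elane: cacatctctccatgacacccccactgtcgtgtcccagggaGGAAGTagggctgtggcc
Prtn3: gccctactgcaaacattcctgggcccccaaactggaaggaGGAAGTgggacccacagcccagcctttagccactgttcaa
Ctsg: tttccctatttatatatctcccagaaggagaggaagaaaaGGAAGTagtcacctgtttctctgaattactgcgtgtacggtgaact
Ctsc: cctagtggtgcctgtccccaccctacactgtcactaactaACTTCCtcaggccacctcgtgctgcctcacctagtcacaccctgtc
Ms4a3: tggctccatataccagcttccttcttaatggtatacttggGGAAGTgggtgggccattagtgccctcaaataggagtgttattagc
Fcnb: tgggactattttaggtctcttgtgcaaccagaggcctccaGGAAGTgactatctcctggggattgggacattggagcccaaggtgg
Their positions are chr11:87793534-87793580 (plus strand) for Mpo, chr10:79886189-79886246 (plus) for Elane, chr10:79879534-79879613 (plus) for Prtn3, chr14:56102734-56102819 (minus) for Ctsg, chr7:88277894-88277979 (plus) for Ctsc, chr19:11640861-11640946 (minus) for Ms4a3 and chr2:28084935-28085020 (minus) for Fcnb. All lie outside annotated exons, within 250 bases before the RefSeq start. The Prtn3 stretch lies inside the GENCODE interval of Prtn3 (79874476 to 79883174), which starts upstream of the RefSeq start.

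GGAAGT, read on both strands, occurred in 7 of 7 of these 250-base windows and in 19.7% of 32851 RefSeq windows of the same length. AACNG, the core of the MYB motif, was in 6 of 7 and in 74.2% of all windows. TTGCNNAA, the C/EBP core, was in 1 of 7 (Fcnb) and in 9.56% of all windows. TGTGGT, the RUNX core, was in 1 of 7 (Ctsg) and in 14.1% of all windows. Matches of different motifs overlapped 1 time among the 7 windows. The motifs were picked after the windows had been seen, the Ctsc window has the same letters as those of genes that were called, and a match is a description of letters, not of binding. Spi1, the gene of PU.1, had a log2 fold change of -0.58 (SE 0.18) and was not called (limma adjusted p = 0.0801). A part of PU.1 in these values was not tested.

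Mpo encodes myeloperoxidase, the haem enzyme that makes hypochlorous acid from hydrogen peroxide and chloride. It is a protein-coding gene on GRCm38 chromosome 11 (87793581 to 87804413, plus strand). Its normalized counts were 634, 521 and 222 in IgHMOG iGBGFP replicates 1, 2 and 3 and 8033, 6272 and 1696 in the WT iGB6 replicates. The groups did not overlap, and the lowest WT iGB6 library was 2.67 times the highest IgHMOG iGBGFP library. Means were 459 ± 213 and 5334 ± 3271 (SD, n = 3 per group), a log2 fold change of 3.39 (SE 0.44, limma adjusted p = 0.00622). WT iGB6 replicate 3 was far below the other WT iGB6 libraries. Ordered from the largest rise to the largest fall, the fold change of Mpo ranked 5 among all tested genes. The annotated antisense gene that overlaps Mpo was at 0 to 0.86 normalized counts.

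Elane encodes neutrophil elastase. It lies on chromosome 10 (79886247 to 79888215, plus strand). Its normalized counts were 688, 648 and 246 in IgHMOG iGBGFP and 5253, 4171 and 1134 in WT iGB6. All WT iGB6 libraries were above all others, by at least 1.65 times. Means of 527 ± 245 and 3519 ± 2135 gave a log2 fold change of 2.61 (SE 0.46, limma adjusted p = 0.0167). Prtn3, which encodes proteinase 3, the neighbouring gene on the same strand (79874476 to 79883174), had 147, 221 and 82.0 normalized counts in IgHMOG iGBGFP and 1066, 1019 and 385 in WT iGB6. Again the groups were apart, with replicate 3 lowest in each. Its log2 fold change was 2.42 (SE 0.41, limma adjusted p = 0.0149), from means of 150 ± 69.4 and 823 ± 381. Prtn3 shares 159 bases with Plppr3 on the opposite strand, whose own level was 13.5 to 52.1 normalized counts. Ctsg encodes cathepsin G (chromosome 14, 56099881 to 56102574, minus strand). Its normalized counts were 91.0, 73.3 and 24.0 in IgHMOG iGBGFP and 365, 365 and 164 in WT iGB6, without overlap. The log2 fold change was 2.34 (SE 0.41, limma adjusted p = 0.0167), from 62.8 ± 34.7 to 298 ± 116.

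**Figure D1:**
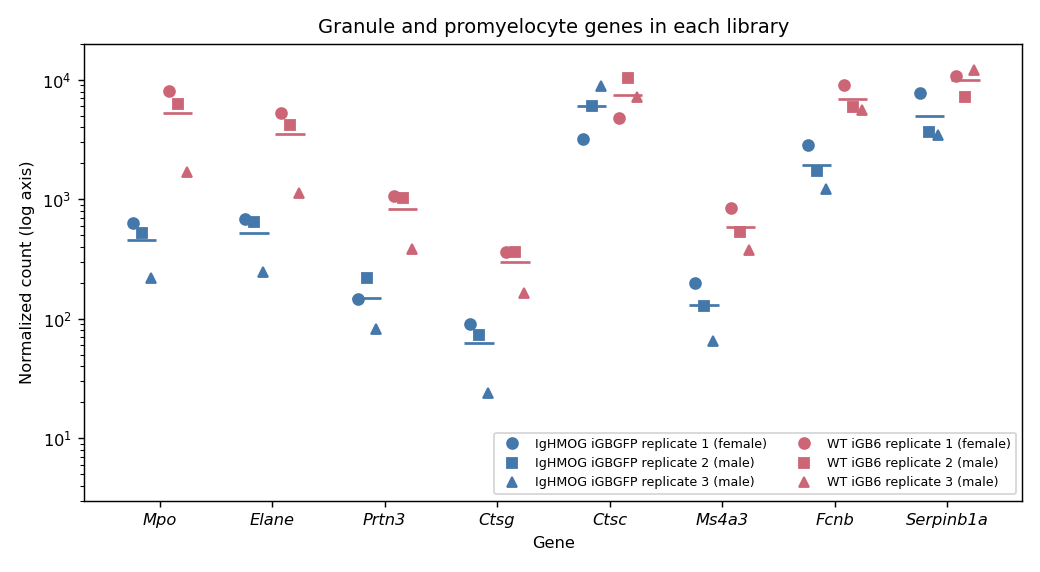
Normalized counts (log axis) of the 8 genes in each of the 6 libraries, with colour for group, marker shape for replicate and a bar for each group mean (n = 3). For Mpo, Elane, Prtn3, Ctsg, Ms4a3 and Fcnb all WT iGB6 points lie above all IgHMOG iGBGFP points, and Ctsc and Serpinb1a overlap.

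Ctsc, the peptidase that activates these proteases, was the gene of the set that was not called. It lies on chromosome 7 (88278085 to 88310888, plus strand). Its normalized counts were 3210, 6072 and 8947 in IgHMOG iGBGFP and 4840, 10454 and 7217 in WT iGB6, and the groups overlapped. IgHMOG iGBGFP replicate 3, the library with the least Mpo and protease RNA, had the most Ctsc of its group. Means were 6076 ± 2868 and 7504 ± 2818, and the log2 fold change of 0.36 (SE 0.23) was not called (limma adjusted p = 0.371). A noncoding gene on the opposite strand within Ctsc was at 0 to 4.31 normalized counts. The Ctsc estimate ran from 0.23 to 0.55 over the 17 alternative fits.

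Serpinb1a, a cytosolic inhibitor of elastase, proteinase 3 and cathepsin G, is on chromosome 13 (32842092 to 32851185, minus strand). Its normalized counts were 7812, 3691 and 3458 in IgHMOG iGBGFP and 10878, 7212 and 12110 in WT iGB6. IgHMOG iGBGFP replicate 1 was above WT iGB6 replicate 2, so the groups overlapped. The log2 fold change was 1.08 (SE 0.26, limma adjusted p = 0.0392), from means of 4987 ± 2449 and 10067 ± 2547. The near copies Serpinb1b and Serpinb1c were at 2.37 to 11.2 and 0 to 0.86 normalized counts, and the treatment of reads that copies share is not given. WT iGB6 replicate 3, the lowest of its group for Mpo and the proteases, was the highest for Serpinb1a.

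Ms4a3, a membrane protein of granulocyte and monocyte progenitors, is on chromosome 19 (11629496 to 11640851, minus strand). Its normalized counts were 202, 128 and 65.0 in IgHMOG iGBGFP and 842, 530 and 376 in WT iGB6. The groups were apart, and means of 131 ± 68.3 and 583 ± 237 gave a log2 fold change of 2.21 (SE 0.26, limma adjusted p = 0.00419). Fcnb, a secreted lectin made by myeloid precursors, is on chromosome 2 (28076378 to 28084885, minus strand). It had 2837, 1720 and 1231 normalized counts in IgHMOG iGBGFP and 9120, 5886 and 5590 in WT iGB6, also apart. Its log2 fold change of 1.88 had the smallest standard error of the 8 genes (SE 0.19, limma adjusted p = 0.00157), with means of 1929 ± 823 and 6866 ± 1958. The related ficolin gene Fcna, which macrophages express, was at 231 to 794 normalized counts with overlapping ranges in the groups.

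The authors' deposited table also placed the same 7 genes under an adjusted p of 0.05 and left Ctsc out (0.445). The log2 fold changes of the granule enzymes were smaller there: the authors' deposited table gave 2.09 for Mpo, 1.58 for Elane, 1.56 for Prtn3 and 1.91 for Ctsg. For Ms4a3 and Fcnb the authors' deposited table gave 1.97 and 1.77.

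Within the sexes, the log2 differences had the same sign. Mpo differed by 3.66 between the females (1 against 1) and by 3.26 between the males (2 against 2), Elane by 2.93 and 2.44, and Prtn3 by 2.85 and 2.21. Ctsg, Ms4a3 and Fcnb differed by 1.99, 2.06 and 1.68 in the females and by 2.51, 2.28 and 1.98 in the males. For Serpinb1a the difference was 0.48 in the females and 1.39 in the males, and for Ctsc 0.59 and 0.24. The interaction of sex and group in limma called 0 genes (148 had an unadjusted p under 0.05, none of them among the 8), so a difference of the effect between sexes was not shown. The females are the replicates numbered 1, so sex and that number cannot be told apart.

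**Figure D2:**
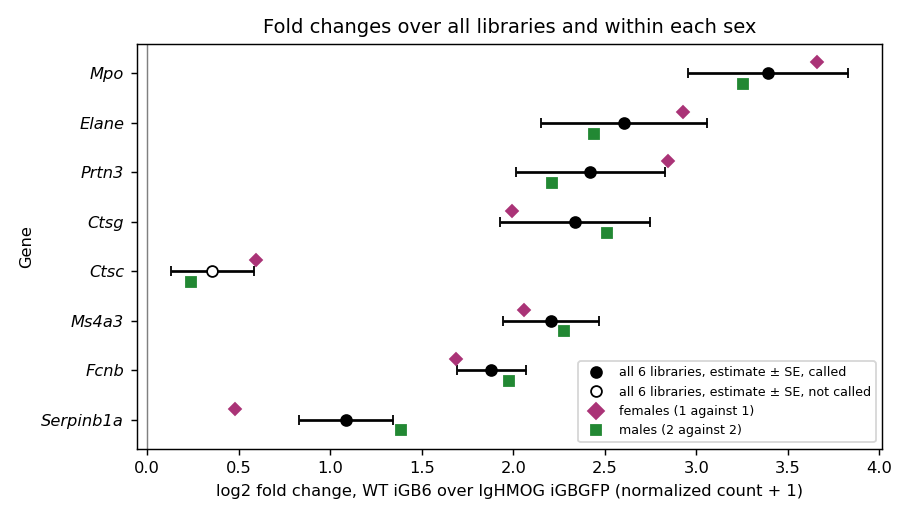
Log2 fold changes (WT iGB6 over IgHMOG iGBGFP) of the 8 genes: circles with bars are limma estimates ± SE over 6 libraries (filled when called), diamonds the female pair and squares the male groups. Mpo lies farthest from 0 at 3.39 and Ctsc nearest at 0.36, and Serpinb1a has the lowest female value (0.48).

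Per kilobase of exonic length, the order of the levels changed between the groups. In IgHMOG iGBGFP the highest mean levels were those of Serpinb1a (2165 ± 1064 normalized counts per kilobase), Fcnb (1441 ± 615) and Ctsc (1046 ± 494), which were within an SD of their neighbour in the order. Elane (536 ± 249) and Mpo (134 ± 62.2) followed, then Prtn3 (86.6 ± 40.1), Ms4a3 (69.7 ± 36.3) and Ctsg (60.8 ± 33.6), which lay within each other's spread. In WT iGB6 Fcnb (5127 ± 1462) stood first, then Serpinb1a (4371 ± 1106) and Elane (3576 ± 2170), whose spreads overlapped. Mpo (1558 ± 955) and Ctsc (1292 ± 485) came next and did not differ beyond their spread, followed by Prtn3 (475 ± 220), Ms4a3 (309 ± 126) and Ctsg (289 ± 112). Elane thus stood above Mpo per kilobase in both groups.

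The 8 genes took 0.235, 0.229 and 0.275% of all normalized counts in the IgHMOG iGBGFP libraries and 0.572, 0.601 and 0.399% in the WT iGB6 libraries. The 95% Wilson intervals, which cover counting error only since amplified copies were counted as reads, ran from 0.270 to 0.279% for the highest IgHMOG iGBGFP library and from 0.394 to 0.403% for the lowest WT iGB6 library. Mean shares were 0.246% ± 0.0247 and 0.524% ± 0.110 (SD, n = 3 per group, two-sided exact permutation p = 0.1, which is the lowest value possible with 3 against 3). Mpo, Elane, Prtn3 and Ctsg alone took 0.0235, 0.0257 and 0.0110% against 0.208, 0.198 and 0.0470%, without overlap (0.0201% ± 0.00789 and 0.151% ± 0.0904, exact permutation p = 0.1).

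Proportions among the genes were compared within each library, where the size factor cancels. Elane had 1.09, 1.24 and 1.11 normalized counts for each one of Mpo in the IgHMOG iGBGFP libraries and 0.654, 0.665 and 0.668 in the WT iGB6 libraries. The WT iGB6 value varied little (0.662 ± 0.00761, n = 3) even though Mpo itself differed between 1696 and 8033 normalized counts in these libraries. The log2 ratio was lower by 0.79 on average (log2 change -0.79), with groups apart.

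Prtn3 per Mpo was 0.232, 0.424 and 0.369 in IgHMOG iGBGFP and 0.133, 0.162 and 0.227 in WT iGB6 (log2 change -0.96). Ctsg per Mpo was 0.144, 0.141 and 0.108 against 0.0455, 0.0583 and 0.0968 (-1.03). Ms4a3 per Mpo was 0.318, 0.245 and 0.293 against 0.105, 0.0846 and 0.221 (-1.18). In all 4 ratios to Mpo the WT iGB6 libraries lay below the others, although for Prtn3, Ctsg and Ms4a3 the gap between the nearest libraries was small. By an exact permutation test (two-sided) p was 0.1 for each, again the lowest possible, and 0.25 after Benjamini-Hochberg adjustment over the 10 ratios compared.

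The other 6 ratios overlapped between the groups. Prtn3 per Elane differed by -0.18 on the log2 scale (exact permutation p = 0.6) and Ctsg per Elane by -0.24 (exact permutation p = 0.5), the second being 0.10 in the males alone. Fcnb per Ms4a3 was 14.1, 13.5 and 18.9 in IgHMOG iGBGFP and 10.8, 11.1 and 14.9 in WT iGB6 (-0.34, exact permutation p = 0.3). Ctsc per summed Elane, Prtn3 and Ctsg was 3.46, 6.45 and 25.4 against 0.724, 1.88 and 4.29, a mean log2 change of -2.20 in which WT iGB6 replicate 3 was above IgHMOG iGBGFP replicate 1 (exact permutation p = 0.2). Serpinb1a per the same sum was 8.43, 3.92 and 9.83 against 1.63, 1.30 and 7.20 (-1.47, exact permutation p = 0.2).

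**Figure D3:**
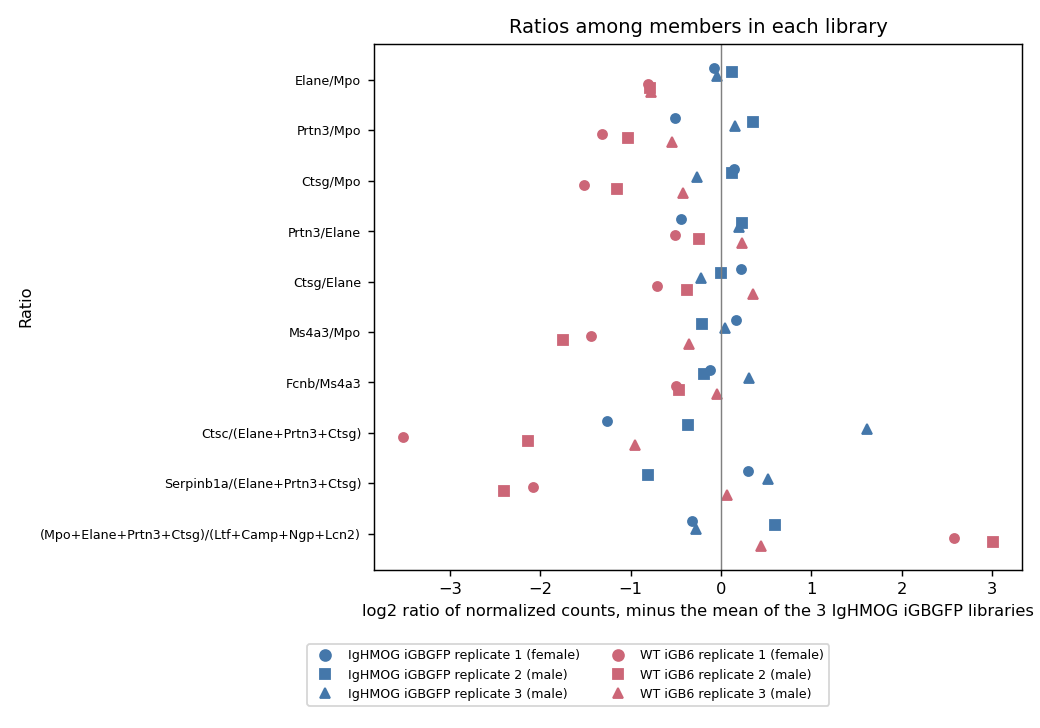
The 10 ratios of normalized counts in each library, as log2 values minus the mean of the 3 IgHMOG iGBGFP libraries, with colour for group and marker shape for replicate. The 3 WT iGB6 points of Elane per Mpo nearly coincide near -0.79, and the ratio of primary to secondary granule genes spreads widest on the upper side.

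Secondary granule genes, which are transcribed after the primary ones, were mostly not called. Beside 2.75% of all tested genes called higher and 3.37% called lower, 2 of 15 tested secondary and tertiary granule genes rose and none fell. Their median log2 fold change was 0.78, and DESeq2 called 7, beside 415 genes higher over all. Orm1, an acute-phase glycoprotein (1.14, SE 0.27, limma adjusted p = 0.0397), and Itgb2l, an integrin beta chain of neutrophil precursors (1.11, SE 0.27, limma adjusted p = 0.0430), were those 2. Ngp, the one with the most normalized counts, was at 0.90 (limma adjusted p = 0.266). Summed Mpo, Elane, Prtn3 and Ctsg per summed Ltf, Camp, Ngp and Lcn2 was 0.00133, 0.00250 and 0.00137 in IgHMOG iGBGFP and 0.00992, 0.0134 and 0.00226 in WT iGB6. WT iGB6 replicate 3 lay within the range of the IgHMOG iGBGFP libraries, so the groups overlapped (log2 change 2.01, exact permutation p = 0.2).

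Other contents of primary granules were mostly not called. Of 13 tested, 1 rose and none fell (2.75% and 3.37% over all tested genes), and the median log2 fold change was 0.04. The gene that rose was Prss57, which encodes another serine protease of azurophil granules. It had 97.2, 74.2 and 43.0 normalized counts in IgHMOG iGBGFP and 302, 228 and 147 in WT iGB6, a log2 fold change of 1.66 (SE 0.27, limma adjusted p = 0.0123). Lyz2, which encodes lysozyme and is made by macrophages and monocytes too, had a log2 fold change of 0.42 (limma adjusted p = 0.514). Srgn, the proteoglycan core that packs granule proteins, was at -1.36 (limma adjusted p = 0.0776), so it did not pass the test.

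Prss57, Prtn3 and Elane lie close together on chromosome 10. The 3 tested genes between Prss57 and Prtn3 had log2 fold changes of 0.17 to 0.30 and none was called (smallest limma adjusted p = 0.444). Of 13 tested genes in a row here, 3 were called, beside 6.12% of all tested genes in either direction. The called genes were the 3 proteases. Med16, a Mediator subunit next to Elane, was at 0.51 (limma adjusted p = 0.291). These neighbours, and those of the other genes of the set, were looked up after the values of the 8 genes were known.

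**Figure D4:**
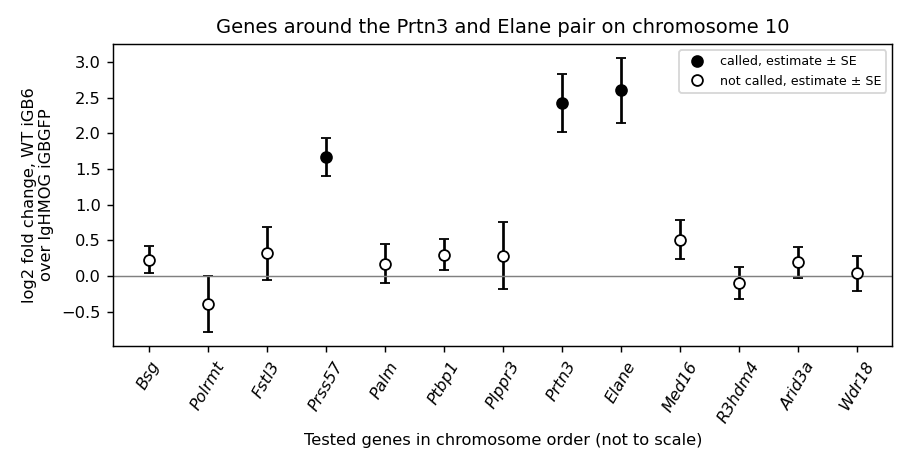
Log2 fold change ± SE of the 13 tested genes around Prtn3 and Elane in chromosome order, filled when called. The 3 filled points, the lowest at 1.66, are the proteases Prss57, Prtn3 and Elane, and the open points lie between -0.40 and 0.51.

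Of the 8 tested genes nearest to Ctsg, 1 was called higher by limma (Cenpj, a centriole gene, 1.09, SE 0.21) and none lower. Of the 8 nearest to Ms4a3 none was called higher and 3 lower (Ms4a2, Stx3 and Mpeg1). Over the neighbours of all genes of the set, 4 on each side, 3 of 56 were called higher and 5 lower. Over all tested genes 2.75% were called higher and 3.37% lower. Gzmb, on the other side of Ctsg from Mcpt8, was at 0.07. Mcpt8, the basophil protease gene beside Ctsg, was at 690, 784 and 142 normalized counts in IgHMOG iGBGFP and 66.4, 123 and 165 in WT iGB6, with overlap (log2 fold change -1.93, SE 0.58, limma adjusted p = 0.0738, edgeR adjusted p = 0.0446). Ms4a2, which encodes the beta chain of the high-affinity IgE receptor and neighbours Ms4a3, fell from 227, 243 and 238 normalized counts to 42.7, 80.5 and 67.5 (-1.92, SE 0.23, limma adjusted p = 0.00397).

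Genes that serve these proteins were also examined. Counts in the lists are limma's unless another tool is named, and stand beside 2.75% of all tested genes called higher and 3.37% lower. Over all genes DESeq2 called 415 higher and 443 lower, and edgeR 254 and 352. Of 14 tested genes for haem supply and folding of myeloperoxidase, 1 rose and none fell (median 0.19), while DESeq2 called 2 higher and 1 lower. P4hb, a protein disulfide isomerase, had means of 1950 ± 166 and 3193 ± 155 normalized counts (log2 change 0.71, SE 0.16, limma adjusted p = 0.0368). Alas1, which opens haem synthesis, was at 0.61 (limma adjusted p = 0.0633) and Furin, a proprotein convertase, at -0.87 (limma adjusted p = 0.0570), so limma called neither, while DESeq2 called both. Of 11 tested protease inhibitors and Ctsc regulators other than Serpinb1a, 1 rose and none fell (median -0.22), while DESeq2 called 1 higher and 2 lower, Slpi and Cst3. The gene called by limma was Serpinb6a, a serpin that inhibits cathepsin G (0.99, SE 0.24, limma adjusted p = 0.0410), whose groups overlapped. Cst7, cystatin F, which can inhibit cathepsin C, was at 20.5, 37.1 and 32.0 against 60.5, 60.8 and 58.5 normalized counts, apart but not called (limma adjusted p = 0.0596). Slpi, an elastase inhibitor, was at -0.83 (limma adjusted p = 0.0757) and Cst3, cystatin C, at -0.77 (limma adjusted p = 0.0535). Of 4 tested proteases other than these that cathepsin C activates, none was called by limma (1 had an unadjusted p under 0.05) and 1, Mcpt8, by edgeR.

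Regulators of granulocyte formation were split. Of 17 tested, 2 rose and 4 fell, beside 2.75% higher and 3.37% lower over all tested genes. The median log2 fold change was -0.76, with 13 estimates below 0 and 4 above (edgeR called 4 in all and DESeq2 8). Flt3, a receptor of early progenitors and dendritic cells, fell by 1.98 on the log2 scale (SE 0.40, limma adjusted p = 0.0248). Irf8, a factor that favours monocytes and dendritic cells over granulocytes, fell by 1.17 (SE 0.24, limma adjusted p = 0.0267). Il6ra, the IL-6 receptor chain, fell by 1.09 (SE 0.23, limma adjusted p = 0.0292) and the monocyte factor Klf4 by 1.73 (SE 0.39, limma adjusted p = 0.0357). The genes that rose, named after their values were seen, were Cebpe, a factor of the promyelocyte to myelocyte step (1.14, limma adjusted p = 0.0467), and the stem cell factor receptor Kit (1.04, limma adjusted p = 0.0478). Neither passed in edgeR or under TMM scaling. Csf3r, the G-CSF receptor, was at -1.12 (limma adjusted p = 0.0720). Also below 0 and not called by limma were Cebpa (-1.23, limma adjusted p = 0.0715), Cebpd (-1.19), Runx1 (-0.60) and Spi1 (-0.58, limma adjusted p = 0.0801). Myb was above 0 and not called by limma (1.16, limma adjusted p = 0.0594).

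Further promyelocyte and precursor genes rose in part. Of 18 tested, 5 rose, none fell and 13 were not called (median 0.47), beside 2.75% of all tested genes called higher. The list was chosen with earlier results known, so its count is not independent evidence. Dmkn, which encodes dermokine, had means of 3.97 ± 2.94 and 98.5 ± 22.7 normalized counts in the 2 groups (log2 change 4.51, SE 0.42, limma adjusted p = 0.00157), a larger change than that of Mpo. Prom1 (1.60, SE 0.26), Nkg7, which the natural killer cell list also holds (1.36, SE 0.22), the chromatin protein gene Hmgn2 (1.18, SE 0.21) and Cdca7 (1.15, SE 0.18) were the others. Cell division genes rose in 13 of 18 with none lower (median 1.17), among them the ribonucleotide reductase subunit Rrm2 (1.49, SE 0.18), the spindle factor Tpx2 (1.45, SE 0.20), thymidylate synthase Tyms (1.36, SE 0.21) and the cyclin Ccnb2 (1.14, SE 0.17). Of 14 genes of mature neutrophils none rose and 3 fell (median -0.38): the selectin ligand Selplg (-1.16, SE 0.24), the lectin Clec4d (-2.14, SE 0.48) and the chemokine receptor Cxcr2 (-0.90, SE 0.21). In this list 9 estimates were below 0 and 5 above. Those above included S100a8, the most abundant (0.51), S100a9 (0.45) and Ly6g (0.73), none of which was called. Clec4d had an adjusted p of 0.125 in the authors' deposited table. Many of these list calls share the dependence described above, since 3 genes in all were called higher and 1 lower without IgHMOG iGBGFP replicate 2, and 6 and 4 without the sex term.

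**Figure D5:**
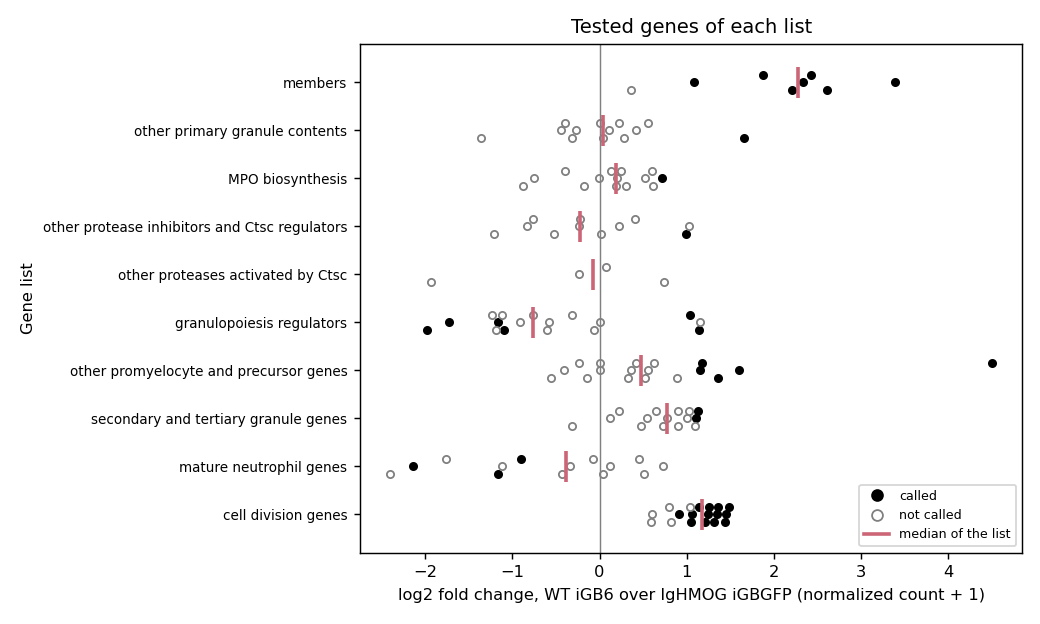
Log2 fold change of each tested gene of 10 lists, filled when called, with a line at the list's median. The 8 genes (top row) have a median of 2.27, cell division genes 1.17, and other primary granule contents 0.04.

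Apart from the set itself, the 8 genes with the profile most like the mean profile of the set over the 6 libraries were Cenpu, Nasp, Sfxn1, Stmn1, Prss57, Psmc3, Nsmce1 and Cenpl, with Pearson's r from 0.990 to 0.996 (log2 values, named protein-coding genes with a mean of at least 50). This is a description over 6 libraries of 2 groups, so the group difference itself contributes to it. Their fold changes were small beside that of Mpo: Cenpu, a centromere gene, rose by 1.25 on the log2 scale (limma adjusted p = 0.0267), and Psmc3, a proteasome subunit, was at 0.42 and not called.

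Markers of other CD11b+ cells moved with the groups. Over all tested genes, limma called 2.75% higher and 3.37% lower. Of 8 tested dendritic cell genes (Flt3 among them) 7 fell and none rose. The summed level of the list was 9019 to 34574 normalized counts in IgHMOG iGBGFP and 4035 to 10310 in WT iGB6. Cd74, an MHC class II chaperone gene, made up most of these sums, so they mainly show that gene. It had 7596, 21048 and 28818 normalized counts in IgHMOG iGBGFP and 3554, 8872 and 4193 in WT iGB6. Of 9 tested basophil and mast cell genes 6 fell and none rose, with sums of 11055 to 22449 and 12070 to 13141. Most of each sum was Hdc, with 14778, 14634 and 9048 normalized counts in IgHMOG iGBGFP and 12112, 10797 and 11429 in WT iGB6. Hdc was not called (-0.13, limma adjusted p = 0.768), so the sums say little about the other genes of the list. Among the genes that fell were Fcer1a (-2.55, SE 0.33) and Cd200r3 (-2.86, SE 0.27). Of 10 classical monocyte genes 4 fell and none rose (DESeq2 called 5 lower and 1 higher), with sums of 23165 to 51191 and 17080 to 32838. No defining marker of these lists was at 0 in all libraries. The part of these cell types in the values of the 8 genes was not tested.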

How the data were processed

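The data are bulk RNA-seq of splenic CD11b+ cells, 1 library from each of 6 mice (3 per group), with group, replicate and sex taken from the labels. Per the labels' protocols, RNA was extracted on columns without removal of genomic DNA, and 8 to 16 ng entered a low-input cDNA kit with 17 amplification cycles and 9 further PCR cycles. No molecular identifiers are described, so amplified copies count as reads.

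The submitters' processing notes list STAR 2.7.10b, featureCounts 2.0.3, cutadapt 4.4, FastQC 0.74, DESeq2 2.11.40.7 and GRCm38/mm10, with no roles or order. Neither the annotation nor the strand setting is given in the sources used here. What the authors deposited is a signal per gene, the normalized count: they divided whole reads by 1 size factor per library, and 100% of values gave whole reads within 0.001. For IgHMOG iGBGFP replicate 3 the step is so close to 1 that the recovery could not be checked independently. The authors' second table, whose columns were read from the values, gives the log2 fold change with standard error, the Wald score and the p-value, raw and adjusted.

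The main test was limma 3.58.1 (R 4.3.3, trend) on log2(normalized count + 1) for 9923 genes whose mean was at least 10. Its terms were group and sex, and p-values were two-sided and Benjamini-Hochberg adjusted. It was tested on simulated data. Alternatives included edgeR 4.0.16 and DESeq2 1.42.0 on the recovered reads. Shares and ratios used exact permutation tests (SciPy 1.17.1). Symbols and coordinates came from GENCODE M21 (GRCm38), which matched 42462 genes by identifier, and promoters from RefSeq (GRCm38.p6). The members and lists were chosen with earlier results of these data known. Named genes were the 8 members, up to 4 genes with the smallest p and the most abundant gene of each list, and the 8 most alike in profile. Relatives of members (Fcna, Serpinb1b and Serpinb1c), chromosome neighbours and any other gene were named with values known.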

Additional observations from a re-analysis of the deposited data

Results flagged for a closer look

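S100a8, a calprotectin subunit gene of neutrophils, was marked because the groups differed in opposite directions within the sexes. The log2 difference of WT iGB6 over IgHMOG iGBGFP was -0.0816 between the females (1 against 1) and 0.80 between the males (2 against 2). The limma interaction of sex and group did not call it (adjusted p = 1.00), so a difference between the sexes was not shown.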

How the results depend on the processing

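Beside 273 genes called higher and 334 lower, library weights gave 731 and 712, no filter on low values 459 and 620, the replicate number as a block 435 and 566, the males alone 62 and 72, and no sex term 6 and 4. DESeq2 and the authors' deposited table called 415 and 410 genes higher. Leaving out each library in turn gave 3 to 410 genes higher and 1 to 673 lower, the lowest counts without IgHMOG iGBGFP replicate 2 (3 and 1) and the highest without WT iGB6 replicate 2 (410 and 673). Of the 8 genes, 4 were called in the males alone, 0 without the sex term and 0 to 7 when single libraries were left out. The males alone and each left-out library leave fewer samples, while the fit without the sex term used all 6 libraries. All 7 genes remained called without WT iGB6 replicate 2 and without WT iGB6 replicate 3. The cause of these differences was not tested. The log2 ratio of Ctsg to Elane was 0.10 in the males alone, against -0.24. Plppr3, which overlaps Prtn3, ran from -0.24 to 0.83 when single libraries were left out and was not called over all 6. Library pairs with the same replicate number correlated in their deviations from the group means by 0.482, 0.35 and 0.041, and WT iGB6 replicate 3 correlated best with IgHMOG iGBGFP replicate 1 (0.085), so the numbers were not taken to pair the mice. With the replicate block, all 7 genes remained called. TMM scaling moved the median log2 fold change of all genes from 0.0169 to -0.00976. With no filter on low values, limma called 6 mature neutrophil genes lower in place of 3. Depth limits the weakest values, since Ctsg had 24 reads in 1 library.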

Other observations

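The remaining marker lists showed few calls, beside 2.75% of all tested genes called higher by limma and 3.37% lower. Of 8 tested erythroid genes none was called by limma, edgeR or DESeq2 (6 had an unadjusted limma p under 0.05, median log2 fold change 0.95), but limma with no filter on low values called 5 higher. The list had sums of 780 to 3317 normalized counts in IgHMOG iGBGFP and 2082 to 4534 in WT iGB6. Of 8 tested natural killer cell genes Nkg7 alone rose and none fell, and the list's sum was highest in WT iGB6 replicate 3 (2455) and next in IgHMOG iGBGFP replicate 3 (1364). Of 10 red pulp macrophage genes 1 rose and none fell. None of 4 tested eosinophil genes and none of 4 tested T and B cell genes was called by limma, edgeR or DESeq2, and 1 in each had an unadjusted limma p under 0.05. The peroxidase genes Epx and Lpo, related to Mpo and named after their values were seen, were at 0 to 3.07 normalized counts.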
